A study of Drosophila melanogaster with 24 samples.

Results

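The genes described here encode the subunits of the proteasome, and they were chosen by symbol alone: every listed gene whose name starts with Prosalpha, Prosbeta, Rpn or Rpt followed by a number. The rule found 46 genes of the 13395 listed on at least 1 day, and all 46 were listed on each of the 4 days. They fall into 15 testis paralogs, whose symbols carry a T or an R after the number, and 31 general subunits. Of the general subunits, 11 have at least 1 of these paralogs and 20 have none. The alpha1 subunit has no gene under such a symbol among them and is not analysed here.

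RNA was sequenced from 24 libraries of *Drosophila* testes, taken on day 0, 1, 3 or 5 after eclosion. For each day, 3 libraries came from *nos*>mCherry RNAi males (Ctrl KD) and 3 from *nos*>*set1* RNAi males (*Set1* KD), in which a hairpin against *Set1*, the main methyltransferase of histone H3 lysine 4 trimethylation, was expressed. Both genotypes carried the *nanos*-Gal4 driver, which is active in early germ cells, and were raised at 18°C and aged as adults at 25°C. Each library held about 15 pairs of testes, so every value is that of pooled animals, and of all cells of the organ that passed dissociation although the driver acts only in the early germline.

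The measurement used is the authors' mean normalized count of a gene, which averages the libraries of a day over both genotypes. It has no standard error, and no value per library was used. The tables' fold changes and p-values between genotypes are the authors' own comparison and were not used, so nothing below separates *Set1* KD from Ctrl KD, and the knockdown of *Set1* itself was not checked. Every value is a description without a test. A difference between days can come from age, from the knockdown, which the averages include, or from other differences between the tables, and these cannot be told apart. To compare genes of different size, each mean was divided by the length of the gene's exons and scaled so that all listed genes of a day sum to 1000000, and this quantity is called the level. The table of each day was normalised separately, so levels set across days rest on this scaling. The mean counts behind the members' levels ran from 384 for *Rpt3* at day 0 to 10793 for *Rpn6* at day 3. In bulk RNA, fewer cells of a type and less RNA per cell cannot be told apart.

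The proteasome degrades proteins that carry a ubiquitin chain. Its core is a barrel in which the rings of alpha subunits gate the entry and the rings of beta subunits enclose the proteolytic sites. A regulatory particle on the core binds the substrate, removes the ubiquitin and unfolds the protein with a ring of Rpt ATPases, while most Rpn subunits form the scaffold, the ubiquitin receptors and the lid. The *Drosophila* genome holds duplicated copies of several subunits that are known from male germ cells, and *Prosalpha6T* is known to be needed for the late steps of sperm formation.

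The libraries carry the marks of late male germ cells. *betaTub85D*, the testis-specific beta-tubulin of spermatocytes and later stages, had levels of 2806, 3094, 2942 and 2629 on days 0, 1, 3 and 5 and made up most of the sum of the 7 spermatocyte markers, which was 2958, 3239, 3103 and 2792. The other 6 were far lower and did not all follow it. Between days 0 and 5, *sa* went from 39.2 to 54.1, *mia* from 15.2 to 23.0 and *topi* from 51.7 to 36.3, and *aly* and *comr*, which lay below the median of all genes at day 0, were also higher at day 5. The 5 spermatid markers summed to 9793, 9531, 8714 and 9316. The early germline markers *vas* and *bam* summed to only 7.93, 8.48, 13.4 and 13.1. The labels give the cell type as germ cell, yet somatic markers were present as well. The muscle genes *Mhc* and *Act57B* summed to 1054, 733, 434 and 304, and *Hml*, a hemocyte gene, had 1.08, 2.47, 5.66 and 10.1. The 3 cyst lineage markers summed to 24.7, 23.9, 30.0 and 29.6 and the 2 hub markers to between 12.9 and 15.6.

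All 46 proteasome genes lay above the median level of all listed genes on every day, which was between 9.26 and 11.3. The median over the 15 testis paralogs was 257, 229, 220 and 219 on days 0, 1, 3 and 5. That over the 31 general subunits was 115, 121, 144 and 138. The median paralog was thus above the median general subunit on each day, although the general subunits, being more numerous, summed to more. The classes differ in make-up, as the alpha and beta rings hold 4 and 6 of the paralogs but 6 and 7 of the general subunits. General subunits of these rings had daily medians of 177 to 287, against 76.5 to 125 for the ATPases and the other regulatory subunits. The part of this make-up in the gap between the class medians was not tested. Together, the paralogs made up 0.353% of the summed levels of all genes at day 0 and 0.311% at day 5, against 0.481% and 0.528% for the general subunits. Each paralog was next compared with the general subunit of the same number, since the normalisation of a table cancels in a ratio taken within it.

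Among the alpha subunits, which close and open the gate of the core, the widest gap was that of alpha6. *Prosalpha6T* had levels of 432, 433, 390 and 372 on the 4 days in turn. The general *Prosalpha6* had 51.9, 44.3, 79.5 and 81.8. The paralog was 8.33 times the general subunit at day 0 and 4.55 times at day 5. Its lowest level of the 4 days, 372, was above the highest of the general subunit, 81.8. Of all 46 genes, *Prosalpha6T* ranked just below *Prosbeta1*, *Prosalpha5* and *Prosalpha7* at day 0.

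The alpha4 family has a pair of paralogs. *Prosalpha4T1* had levels of 259, 209, 181 and 209, and *Prosalpha4T2* had 235, 274, 249 and 221. *Prosalpha4* lay at 91.3, 64.6, 119 and 130, below both paralogs on every day. Neither paralog was the higher one throughout, as *Prosalpha4T1* led at day 0 and *Prosalpha4T2* on the other days. The alpha3 family was the exception in the opposite sense. *Prosalpha3T* had levels of 112, 107, 119 and 112, whereas *Prosalpha3* had 295, 313, 327 and 298, so the paralog stood at between 0.343 and 0.381 times the general subunit.

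The catalytic beta subunits are beta1, with caspase-like activity, beta2, with trypsin-like activity, and beta5, with chymotrypsin-like activity. Of these, beta2 and beta5 have paralogs and beta1 has none. *Prosbeta2*, the general form, had levels of 41.0, 39.9, 61.4 and 63.3, the lowest of the beta subunits. *Prosbeta2R1* had levels of 165, 176, 164 and 142, and *Prosbeta2R2* had 260, 244, 220 and 214. The ratio to *Prosbeta2* therefore lay between 2.25 and 4.41 for *Prosbeta2R1* and between 3.39 and 6.35 for *Prosbeta2R2*.

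In the beta5 family, the general gene was closer to its paralogs. *Prosbeta5* had levels of 125, 103, 155 and 171. *Prosbeta5R1* had 225, 295, 265 and 219, and *Prosbeta5R2* had 278, 229, 213 and 223. By day 5 they stood at 1.28 and 1.30 times *Prosbeta5*, whereas *Prosbeta5R1* had reached 2.86 times at day 1. By contrast, *Prosbeta1*, which has no paralog, had 444, 440, 483 and 453 and was the most abundant beta subunit.

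The beta4 subunit has no catalytic site, and its paralogs are neighbours. *Prosbeta4R1* lies on chromosome arm 2L from 2653046 to 2653926 and *Prosbeta4R2* from 2655394 to 2657102, both on the plus strand, in coordinates of Release 6 of the genome. Their levels moved in parallel, with 329, 281, 239 and 260 for *Prosbeta4R1* and 312, 277, 247 and 254 for *Prosbeta4R2*. *Prosbeta4*, at 79.9, 65.0, 110 and 114, was lower than both on every day. Reads shared between such related copies were not examined. The length matters for *Prosbeta4R2*, whose annotated exons cover 1647 bp but whose coding sequence is 630 bp: its ratio to *Prosbeta4* lay between 2.23 and 4.26 by exon length and between 4.32 and 8.24 by coding length.

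The Rpt ATPases form the motor of the regulatory particle, and paralogs of Rpt3, Rpt4 and Rpt6 were listed. *Rpt3* was the lowest of all 46 genes, at 21.1, 20.9, 35.0 and 32.5, while *Rpt3R* had 123, 107, 126 and 129. *Rpt6R* had 257, 222, 233 and 238 and *Rpt6* had 139, 129, 138 and 138. That ratio was the steadiest of the 15 pairs, between 1.68 and 1.85. *Rpt4R* was the lowest paralog, with 38.3, 41.1, 58.6 and 65.2, and stood at no more than 1.57 times *Rpt4* (31.6, 36.0, 44.5 and 41.6).

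In the rest of the regulatory particle, paralogs were listed for Rpn12, a lid subunit, and Rpn13, a ubiquitin receptor. *Rpn12R* had levels of 332, 305, 314 and 304, and *Rpn12* had 34.6, 37.1, 58.7 and 54.4. The ratio of 9.60 at day 0 was the highest of any pair on that day. *Rpn13R*, at 176, 172, 159 and 153, and *Rpn13*, at 156, 181, 183 and 165, were nearly level, with ratios from 0.869 to 1.13 that crossed 1 between days 0 and 1. Calculated from coding length, the ratio at day 0 was 0.959.

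**Figure D1:**
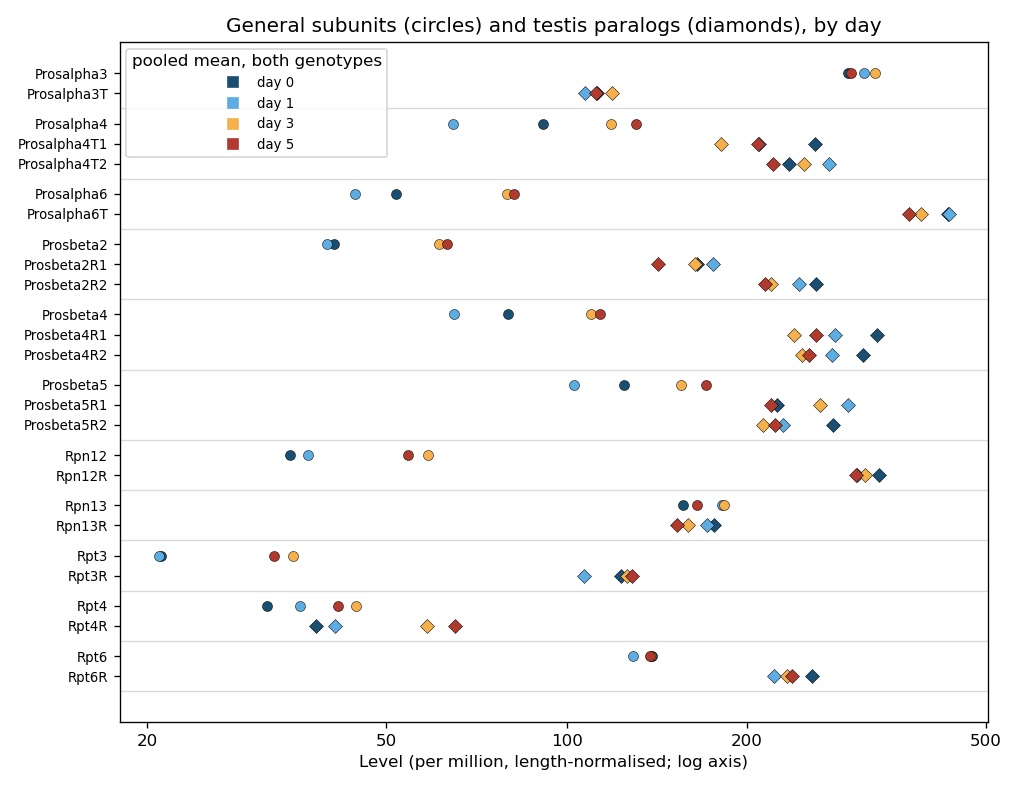
Level of each general subunit (circles) and its testis paralogs (diamonds) in the 11 families that have paralogs, 1 point per day; the x axis is the level (length-normalised, sum of all genes 1000000) on a log scale, and each point is the authors' mean over both genotypes. The paralogs lie right of the general subunit in most families, with *Prosalpha3T* (107 to 119) left of *Prosalpha3* (295 to 327) as the exception on every day.

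Of the 15 pairs, the paralog was above its general counterpart on all 4 days in 13, below it on all days in 1 (*Prosalpha3T*) and changed sides in 1 (*Rpn13R*). The median ratio over the pairs was 2.84, 4.25, 2.09 and 1.72 on the 4 days. Whether the gene length was taken from all exons, from the longest transcript or from the coding sequence, or left out, the count of pairs above 1 on all days was 13. The aligner used for these tables does not place a read across an intron, which can lower the counts of genes with more introns, and 10 of the paralogs have fewer coding exons than their counterpart. In the other 5 pairs, *Prosalpha4T2*, *Prosbeta2R1*, *Prosbeta2R2*, *Prosbeta5R1* and *Rpn12R*, the number is equal, and the paralog was above the general subunit on all days in each of them, with a lowest ratio of 1.28. Equal numbers of coding exons do not make introns or lost reads equal, and the part of the alignment in the ratios was not tested.

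The general subunits themselves ranged from the 21.1 of *Rpt3* to the 489 of *Prosalpha5* at day 0. The highest in each part of the complex by the mean over days were *Prosalpha5* (460) in the alpha ring, *Prosbeta1* (455) in the beta ring, *Rpt6* (136) in the ATPase ring and *Rpn6* (341), a lid subunit, among the other regulatory subunits. The lowest were *Prosalpha6* (64.4), *Prosbeta2* (51.4), *Rpt3* (27.4) and *Rpn12* (46.2). Each of these 4 lowest subunits has a testis paralog, whereas of the 4 highest only *Rpt6* has one. The order differed on single days. On days 3 and 5, *Rpn1* (52.5 and 49.3), which has no paralog, was below *Rpn12* (58.7 and 54.4). *Rpt1* (152 and 145), also without one, was above *Rpt6* (138 and 138).

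By day, *Prosalpha5* had levels of 489, 435, 445 and 470, and *Rpn6* had 335, 341, 360 and 329. These abundant subunits followed no common order over the days. The general subunits with a paralog had a median of 79.9, 64.6, 110 and 114, against 145, 151, 163 and 155 for those without. At day 0, 9 of the 11 with a paralog were below the median of those without, and at day 5, 8 of 11 were. *Prosalpha3* was above that median on each day. Of the 5 lowest general subunits, 4 had a paralog, but only 5 of the 10 lowest and 7 of the 15 lowest did, against 11 of all 31. The fourth from below was *Rpn1*, a scaffold and ubiquitin receptor of the base, which has none and had 48.6, 53.4, 52.5 and 49.3.

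Of the general subunits without a paralog, the other core genes were all abundant. *Prosalpha2* had levels of 193, 236, 247 and 229, *Prosalpha7* between 435 and 488, and *Prosbeta3*, *Prosbeta6* and *Prosbeta7* between 177 and 290. The regulatory particle spanned a lower range, in which *Rpn10*, a ubiquitin receptor, was high with 238, 265, 258 and 226. *Rpn11*, the deubiquitinase that releases the ubiquitin chain, had 115, 123, 144 and 135, and *Rpn2*, the partner scaffold of Rpn1, had 77.3, 91.5, 95.3 and 90.3. The ubiquitin receptor Rpn10 was thus above the deubiquitinase on each day. Of the other ATPases, *Rpt1* lay between 111 and 152, *Rpt2* between 87.9 and 108 and *Rpt5* between 65.2 and 77.3. The remaining Rpn genes, *Rpn3*, *Rpn5*, *Rpn7*, *Rpn8* and *Rpn9*, lay between 54.9 and 175.

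**Figure D2:**
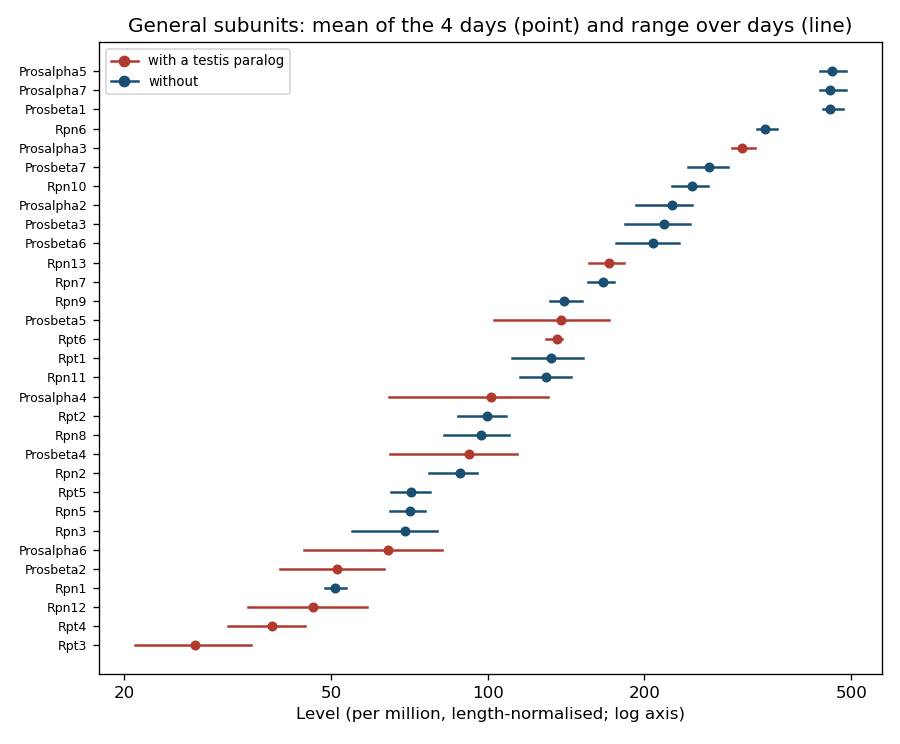
The 31 general subunits in order of their mean level over the 4 days (points), with lines from the lowest to the highest day; the x axis is the level (length-normalised, sum of all genes 1000000) on a log scale, and red marks the 11 subunits that have a testis paralog. Red points fill 4 of the 5 lowest places, from *Rpt3* at 27.4, but 5 of the 10 lowest and 7 of the 15 lowest. *Prosalpha3* at 308 is the highest red point.

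Since each core ring holds its subunits in equal number, the levels were also summed over a general subunit and its paralogs. In the alpha ring, the highest general subunit was between 5.75 and 10.1 times the lowest on the 4 days. With paralogs added, this span was between 2.22 and 3.04 times. At day 0, the summed level was 585 for alpha4, 484 for alpha6 and 407 for alpha3, beside the 489 of *Prosalpha5* and the 435 of *Prosalpha7*, whereas *Prosalpha2* stood lower at 193. The span of the beta ring went from between 7.17 and 11.0 times to between 2.71 and 4.08 times. There, the families with paralogs came out above all others at day 0, with 721 for beta4, 627 for beta5 and 466 for beta2, against 444 for *Prosbeta1*, 177 for *Prosbeta6*, 183 for *Prosbeta3* and 252 for *Prosbeta7*. On days 3 and 5, the beta2 sum (445 and 420) was below *Prosbeta1* (483 and 453). All these sums used exon length, and the beta4 sum includes *Prosbeta4R2*, whose ratio was higher by coding length. The spans with paralogs were not recalculated with another length.

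In the regulatory particle, the span narrowed less on days 0 and 1 and was wider with paralogs on days 3 and 5. The span of the ATPase ring was 6.58, 6.17, 4.35 and 4.46 times for the general genes alone and 6.07, 5.04, 4.80 and 5.22 times with paralogs. *Rpt6* with *Rpt6R* summed to 396 at day 0, far above the 65.2 of *Rpt5*, the lowest sum. Among the other regulatory subunits, the span was 9.67, 9.20, 6.84 and 6.67 times alone and 7.55, 6.61, 7.09 and 7.26 times with paralogs. The narrowing on days 0 and 1 depended on the measure. The coefficient of variation of the ATPase ring was 0.601, 0.564, 0.524 and 0.539 alone and higher with paralogs on every day, at 0.864, 0.751, 0.660 and 0.683. For the other regulatory subunits it changed little at day 0, from 0.707 to 0.715, and at day 1, from 0.677 to 0.672. A sum over transcripts says nothing of whether the proteins occur in the same cell.

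**Figure D3:**
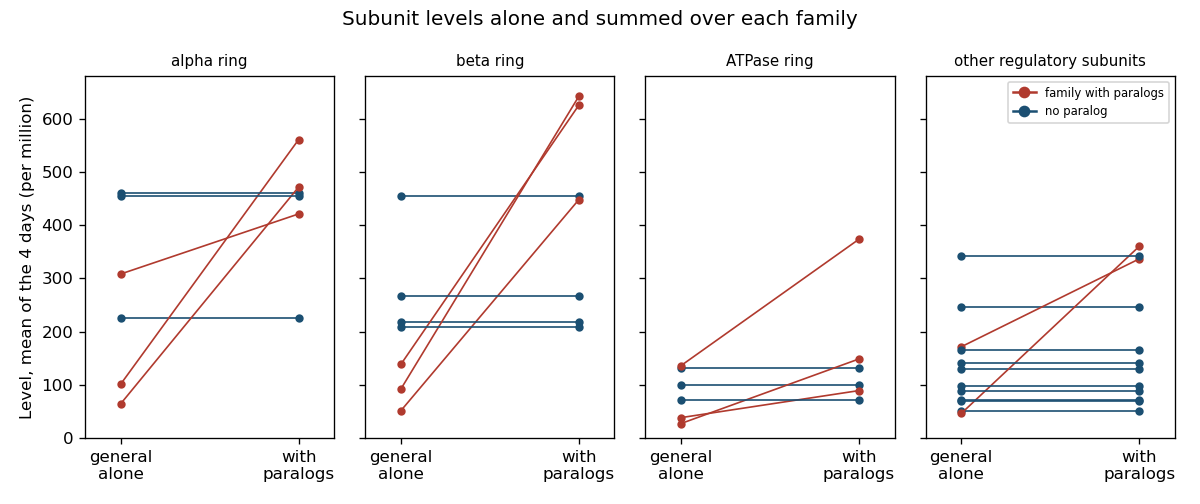
Mean level over the 4 days (y axis, length-normalised, sum of all genes 1000000) of each general subunit alone and after its paralogs were added, by part of the complex; red lines are the 11 families with paralogs and blue lines the 20 subunits without. In the alpha ring, the sums of alpha4 and alpha6 lie above *Prosalpha5* (460) and *Prosalpha7* (455) and that of alpha3 below them, while in the ATPase ring Rpt6 moves away from the others.

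The share of a family's level that came from paralogs was then followed over the days. In the alpha6 family it was 89.3%, 90.7%, 83.1% and 82.0% on the successive days. The beta2 family had 91.2%, 91.3%, 86.2% and 84.9%, and the beta4 family had 88.9%, 89.6%, 81.6% and 81.9%. In these 3 families, the later days lay below the earlier days. The alpha4 family had its highest share, 88.2%, at day 1 and its lowest, 76.7%, at day 5, and the beta5 family likewise had 83.6% and 72.1% on these days.

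In the regulatory particle, the paralog share of Rpn12 was 90.6% at day 0 and 84.8% at day 5, and that of Rpt3 was 85.4% and 79.9%. In 8 of the 11 families, both later days were below both earlier days. The narrowest case was Rpn13, with 53.0%, 48.6%, 46.5% and 48.1%. The exceptions were alpha3, which lay between 25.5% and 27.6%, Rpt6, between 62.7% and 64.9%, and Rpt4. The share of *Rpt4R* was higher on the later days, at 54.8%, 53.3%, 56.8% and 61.0%. The median over families was 84.4%, 83.6%, 78.3% and 76.7%.

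**Figure D4:**
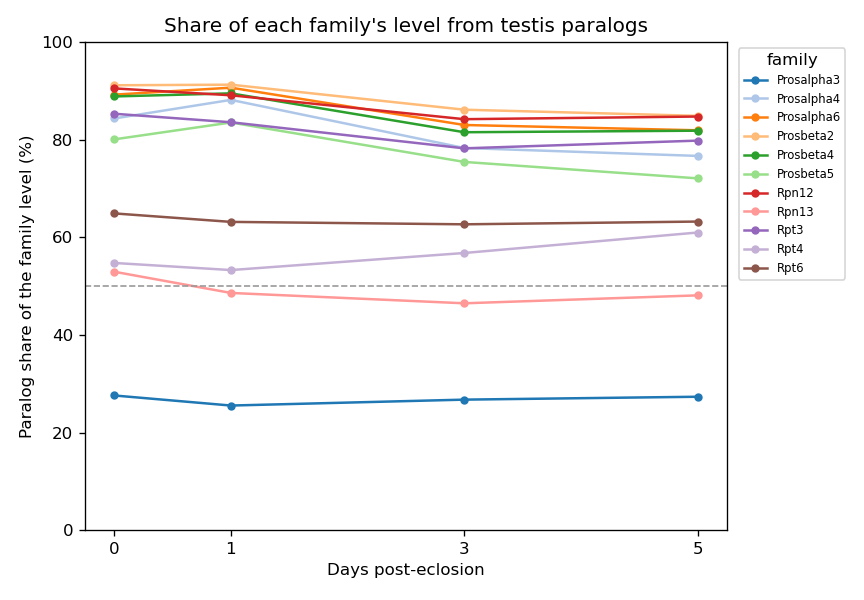
Percentage of each family's summed level that came from its testis paralogs (y axis) against days post-eclosion (x axis), 1 line per family; the dashed line marks equal parts. The alpha4, alpha6, beta2, beta4, beta5, Rpn12 and Rpt3 lines lie between 72.1% and 91.3%, with days 3 and 5 below days 0 and 1, and the Rpt4 line ends higher, at 61.0%.

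Both sides of these shares differed between the days. Over the tables, which were normalised separately, the level of *Prosalpha6* at day 5 was 1.58 times that at day 0, and that of *Prosalpha6T* was 0.860 times. For *Prosbeta2* the factor was 1.54, for *Rpn12* 1.57 and for *Rpt3* 1.54. For *Prosbeta2R2* it was 0.825 and for *Rpn12R* 0.913, whereas *Rpt3R* (1.05) and *Rpt4R* (1.70) were higher at day 5. The levels did not climb evenly, as *Prosalpha4*, *Prosalpha6*, *Prosbeta2*, *Prosbeta4*, *Prosbeta5* and *Rpt3* each had their lowest level at day 1.

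On both later days, 8 of the 11 general subunits with a paralog were above both earlier days, where 41.8% of all genes listed on the 4 days were. The count was 9 of 20 for the general subunits without a paralog, close to that background, and 2 of 15 for the paralogs. The reverse, later days below both earlier days, held for 8 of the 15 paralogs and for 0 of the 31 general subunits, against 22.1% of all genes. At day 5, 26 of the 31 general subunits and 2 of the 15 paralogs were higher than at day 0, against 59.2% of all genes. The median log2 ratio of day 5 to day 0 was 0.51 for the general subunits with a paralog, 0.13 for those without, -0.20 for the paralogs and 0.08 for all listed genes. On both later days, the summed spermatid markers were also lower than on both earlier days. Of the single spermatid markers, this held only for *Mst84Db*, with levels of 4380, 4793, 4079 and 4311. By contrast, *dj*, *ProtA*, *ProtB* and *soti* were each higher at day 5 than at day 1. The muscle markers were lower on both later days, and the early germline markers, the cyst lineage markers and *Hml* were higher, as given above. The part of these markers in the differences between days was not tested.

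**Figure D5:**
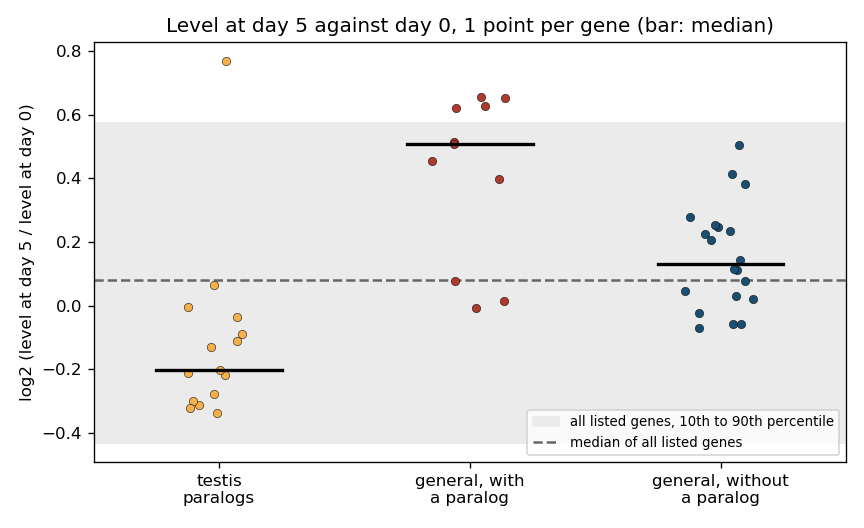
Log2 of the level at day 5 over that at day 0 (y axis) for 15 testis paralogs, 11 general subunits with a paralog and 20 without; each point is 1 gene, bars are medians (-0.20, 0.51 and 0.13), the dashed line is the median of all listed genes (0.08) and the grey band runs from their 10th to their 90th percentile. The one paralog above the band is *Rpt4R*, at 0.77.

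The pairs differ in where they lie and how they are built. In 10 of the 15 pairs, the paralog is on another chromosome arm than the general gene. All 4 general subunits on the X chromosome, *Prosalpha4*, *Rpt3*, *Rpt4* and *Rpt6*, have paralogs, and the 5 paralogs of these genes are all on autosomes. *Prosbeta2R1* and *Rpn13R* are the 2 paralogs on the X chromosome. A coding sequence in a single exon was annotated for 6 of the 15 paralogs and for 4 of the 31 general subunits, and 10 paralogs have fewer coding exons than their counterpart. *Prosalpha6T*, on arm 2L from 13232039 to 13233058, has 1 coding exon and *Prosalpha6*, on the same arm from 10221351 to 10222546, has 3.

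Genes that act with the proteasome were taken from a list of 15, all of which were listed on the 4 days. The highest was *Uch-L5*, a deubiquitinase of the regulatory particle, with levels of 420, 452, 471 and 444, and its related gene *Uch-L5R* had 111, 111, 108 and 102. Here the related copy was thus the lower one, as in the alpha3 family. *PI31*, a proteasome regulator, had 352, 422, 397 and 352, and *ntc*, the F-box protein that binds it in spermatids, had 188, 225, 231 and 215. *Pomp*, the chaperone of core assembly, had 276, 270, 276 and 239, within the range of the abundant core subunits. The lowest of the list was *cnc*, a transcription factor that induces proteasome genes in stressed cells, with 20.9, 22.7, 21.9 and 20.2.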

How the data were processed

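Poly(A) RNA of 24 testis libraries, 3 per genotype and day, was sequenced. Libraries were made with a strand-specific poly(A) kit. According to the methods and the labels, the authors mapped the reads to Release 6 of the fly genome (dm6) with Bowtie 2 version 2.5.1, summarised them to genes with featureCounts and fitted each day separately in DESeq2. Bowtie 2 does not split a read over an intron. The strand and multi-mapping settings of the counting are not given in the sources used here, so reads shared by related copies are uncertain. Of each deposited table, only the mean normalized count was used, a signal that the authors averaged over both genotypes with DESeq2's size factors. The other columns hold the authors' fold change, its standard error, the Wald statistic and p-values, and were not used. Depth and spread per library are therefore unknown, no interval was computed and no test was run. The lowest mean count listed was between 4.96 and 5.27.

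Of 13395 listed genes, 13365 matched a gene model of Ensembl release 115 (dm6 coordinates; the authors counted on other gene models), 12838 by symbol, among them all 46 members, and 527 through RefSeq names. The other 30, *nos* among them, got no level. The level is the mean count per kilobase of the union of exons, scaled to a sum of 1000000 per day. Alternatives were the longest transcript, the coding length, no length, a minimum mean count of 10, and sums without mitochondrial genes or without the top 1% of genes. An alternative was read as moved beyond 1.5 times, since no error was at hand. The calculation of the level was tested on counts simulated from known levels and the same gene lengths. Such a test checks the arithmetic only and cannot show errors from introns, shared reads or gene models. Named were every paralog and its counterpart, the highest and lowest general subunit of each part of the complex, and of the other pathway genes the extremes and those with a testis role. *Rpn1*, the other general subunits without a paralog and *Pomp* were added after their values were seen. Members and lists were chosen with earlier results of these data known. Exons of 14 members overlap those of another gene, for 2 of them, *Rpn9* and *Rpt6*, by over 10% of the exon length, and there, without strand, reads of both genes could not be told apart. Python 3.11.15, numpy 2.4.6, pandas 2.3.3 and matplotlib 3.10.9 were used.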

Additional observations from a re-analysis of the deposited data

How the results depend on the processing

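The medians over all paralogs and over all general subunits and the summed shares moved by less than 1.5 times under each length, filter and sum tried, and the median ratio over pairs did so under the 3 lengths tried. With each day left out in turn, the median over pairs of the highest ratio over the lowest, 1.87 with all days, lay between 1.68 and 1.87. The ratio of *Rpn13R* to *Rpn13* at day 0 was below 1 with coding length (0.959) and with no length (0.733), and above 1 otherwise (1.13). For single values, 4 moved beyond 1.5 times with coding length, all of them ratios of *Prosbeta4R2*. Without length, 11 did, besides the *Rpn13R* ratio at day 0 just given, and the ratios of *Rpn13R* were down to 0.566. Without length, the subunits without a paralog were between 2.32 and 4.06 times those with one, against 1.36 to 2.34 times in the main calculation.

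When the spread was given as a coefficient of variation, the order of the parts of the complex changed on 2 days. At day 3 it was 0.588 for the alpha ring, 0.618 for the beta ring, 0.524 for the ATPase ring and 0.625 for the other regulatory subunits, and at day 5 it was 0.582, 0.592, 0.539 and 0.60. The span summed over families, an alternative added after the data had been seen, differed by over 1.5 times from that of the general subunits alone in both core rings. It was 3.04, 2.32, 2.22 and 2.45 times for the alpha ring and 4.08, 3.04, 2.71 and 2.97 times for the beta ring on days 0, 1, 3 and 5. This summed span was calculated with exon length only.

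No paired analysis was possible because the tables give 1 mean per day over all libraries. No library was left out for the same reason. Every level carries an unknown error here, also that of *Rpt3*, the lowest of the 46 genes.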
